A study of Mus musculus with 6 samples.

Results

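Dendritic epidermal T cells are gammadelta T cells that live between the keratinocytes of mouse skin, and 10 genes of this cell type were followed here from young to aged tail epidermis. They are the CD3 chain genes Cd3d, Cd3e, Cd3g and Cd247, the surface protein genes Thy1, Cd5, Il2rb, Klrk1 and Itgae, and the chemokine gene Xcl1. They were chosen by name, and their probes are those whose RefSeq accession belongs to 1 of these genes. Of the 10 genes 9 had a probe, 11 probes in all among 55681, and Itgae, the integrin chain that binds E-cadherin on keratinocytes, had none and is not analysed here. Only 4 of the 9 genes met the detection rule for testing, which asked for a signal well above background on at least 3 of 6 arrays, and 5 were not well above background on any array.

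The samples were total epidermis of tail skin of wild type C57BL/6 mice, 3 young samples of 8 weeks and 3 aged samples, of which replicate 1 was of 22 months and replicates 2 and 3 of 25 months. Epidermis was lifted from the dermis with EDTA at 5 mM for 3.5 h, and 1 to 10 ng of RNA was amplified, labelled with Cy3 and hybridised, each sample to its own array. Whether each array holds 1 mouse or a pool is not given in the sources used here. Both groups held more than 1 animal, since the aged samples differ in age and Y-linked transcripts separate replicate 1 of each group from the others. The preparation holds every cell type of the epidermis, and a lower signal cannot tell fewer T cells from less RNA per cell.

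In these cells the T cell receptor has no signalling tail of its own. It is held at the surface by CD3 chains, among them gamma and epsilon, and by the zeta chain encoded by Cd247. Tyrosine motifs of these chains are phosphorylated by the kinase Lck and then bind the kinase Zap70. Thy1 and Cd5 are further surface proteins of T cells, Il2rb is the chain shared by the IL-2 and IL-15 receptors, Klrk1 encodes the stress ligand receptor NKG2D, and XCL1 attracts dendritic cells that carry XCR1. Thy1 is a classical marker of these cells in mouse epidermis but is also made by fibroblasts and other cells.

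Values are log2 of the scanner's processed signal minus the 75th percentile of the array, so 0 is the level of that percentile. Different probes bind with different strength, so levels are compared between arrays and never between probes. The 75th percentile lay between 230.2 and 300.3 signal units, an array had 50.02% to 54.38% of its probes well above background, and 0 spots were saturated. Precision is limited by there being 3 arrays per group. Replicate 1 of both groups carried the Y-linked transcript Eif2s3y, at 3.32 in the young and 3.43 in the aged sample against -6.62 to -6.89 on the other arrays, and Ddx3y and Kdm5d were likewise well above background on these 2 arrays only. The probe of Uty, also Y-linked, departed from this, with -1.74 on young replicate 3 and -3.63 on young replicate 1. The X-linked transcript Xist read -7.07 on aged replicate 1, -2.875 on young replicate 1 and 0.72 to 1.34 on the other arrays. It was well above background on all 3 young arrays and on 2 aged arrays. Keratinocyte markers were as the tissue label says, with 11 of 11 genes well above background on all 6 arrays, among them Krt5 at 8.99 to 9.24 and Krt10 at 9.41 to 9.55.

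The CD3 chains did not appear as a set. Cd3e, the epsilon chain gene, was well above background on all 6 arrays, Cd3g on 3, and Cd3d and Cd247 on 0. Over all 21368 genes with a probe, 27.7% were not well above background on any array and 61.2% were on all 6. Only 1 of 4 CD3 chains was thus detected on every array, which goes against describing these genes as a measured receptor complex, and they are treated singly below.

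Cd3g, Cd3d and Cd3e are next to each other in this order among the protein-coding genes of chromosome 9, yet were detected on 3, 0 and 6 arrays. Their promoter windows are shown because these neighbours differ in detection, together with that of Cd5 on chromosome 19, another member well above background on all 6 arrays. RefSeq (GRCm38.p6) gave a window for 7 of the 10 members, not for Thy1, Il2rb and Itgae. The windows run from 250 bases before to 50 after the transcript start, 5′ to 3′ on the gene's strand. Capitals mark the ETS motif AGGAAG or its reverse complement CTTCCT, and the E-box CACCTG or CAGGTG.
Cd3g promoter (chr9:44980382-44980681, minus strand): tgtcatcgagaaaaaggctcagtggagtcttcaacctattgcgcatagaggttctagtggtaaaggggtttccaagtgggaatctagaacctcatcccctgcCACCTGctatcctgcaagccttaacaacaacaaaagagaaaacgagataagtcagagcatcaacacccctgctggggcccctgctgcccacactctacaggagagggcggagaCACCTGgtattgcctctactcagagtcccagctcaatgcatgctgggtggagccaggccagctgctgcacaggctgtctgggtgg
Cd3d promoter (chr9:44981536-44981835, plus strand): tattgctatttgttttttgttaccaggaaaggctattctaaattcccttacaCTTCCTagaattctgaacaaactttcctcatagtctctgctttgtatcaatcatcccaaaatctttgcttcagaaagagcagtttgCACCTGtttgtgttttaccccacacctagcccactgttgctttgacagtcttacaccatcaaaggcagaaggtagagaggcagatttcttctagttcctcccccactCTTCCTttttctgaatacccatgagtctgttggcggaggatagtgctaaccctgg
Cd3e promoter (chr9:45009562-45009861, minus strand): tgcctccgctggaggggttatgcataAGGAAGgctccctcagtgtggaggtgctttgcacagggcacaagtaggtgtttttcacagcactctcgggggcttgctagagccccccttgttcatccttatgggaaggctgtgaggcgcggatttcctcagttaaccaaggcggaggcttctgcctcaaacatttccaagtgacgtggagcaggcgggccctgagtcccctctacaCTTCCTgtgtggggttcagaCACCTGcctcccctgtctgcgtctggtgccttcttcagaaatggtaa
Cd5 promoter (chr19:10738925-10739224, minus strand): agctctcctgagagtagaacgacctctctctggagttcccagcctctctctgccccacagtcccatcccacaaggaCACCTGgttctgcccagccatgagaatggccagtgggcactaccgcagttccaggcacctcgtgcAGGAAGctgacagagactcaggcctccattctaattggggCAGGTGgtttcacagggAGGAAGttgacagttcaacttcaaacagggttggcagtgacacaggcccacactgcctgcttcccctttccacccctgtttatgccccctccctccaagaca

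The Cd3e window holds 2 ETS matches and 1 E-box match, the Cd3d window likewise 2 and 1, the Cd3g window 0 and 2, and the Cd5 window 2 and 2, with no overlap between the motifs. Among all 32851 windows given by RefSeq, 35.4% hold the ETS motif and 20.2% the E-box. The RUNX motif TGTGGT or ACCACA, in 16.8% of all windows, and TATAAA or TTTATA, in 13.6%, have 0 matches in these windows. Detected Cd3e and undetected Cd3d thus hold the same number of matches, and a match or its absence describes the letters of the window only.

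Cd3e had almost the same signal on every array. It read 0.22, 0.093 and 0.24 on young replicates 1 to 3 and 0.27, 0.26 and 0.23 on aged replicates 1 to 3. The groups overlapped, and all 6 values lay close together. Young arrays averaged 0.18 ± 0.079 and aged arrays 0.25 ± 0.022 (SD, n = 3 each). The difference was 0.067 ± 0.10 (SE, limma adjusted p = 0.762), and its 95% confidence interval allows an aged to young ratio from 0.878 to 1.25.

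Cd3g, the gamma chain gene, was dim everywhere and at the background on 1 aged array. It read -4.29, -4.18 and -4.65 on young replicates 1 to 3, and -7.12, -4.43 and -4.47 on aged replicates 1 to 3. Aged replicate 1 stood far below the other 5 arrays, among which the groups overlapped. The signal was well above background on young replicates 1 and 2 and aged replicate 2. The difference was -0.97 ± 0.73 (SE, n = 3 arrays per group, limma adjusted p = 0.506), and -0.077 ± 0.17 without aged replicate 1 (adjusted p = 0.810). The confidence interval with all arrays spans aged to young ratios from 0.149 to 1.76, so neither a fall nor a rise of Cd3g could be detected at this signal.

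Cd3d, the delta chain gene, was well above background on 0 arrays. Its values were -5.67, -5.78 and -4.86 in young and -6.83, -4.68 and -5.32 in aged epidermis. It exceeded the 95th percentile of the 292 to 302 negative control spots on 5 of 6 arrays, and the exception was aged replicate 1, as for Cd3g. Neither Cd3g nor Cd3d was set apart from the negative controls on that array. The zeta chain gene Cd247 had a pair of probes, read at -7.19 to -5.45 and at -6.87 to -5.88. The first exceeded the 95th percentile of the negative controls on 1 array, aged replicate 3, and the second on 4.

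**Figure D1:**
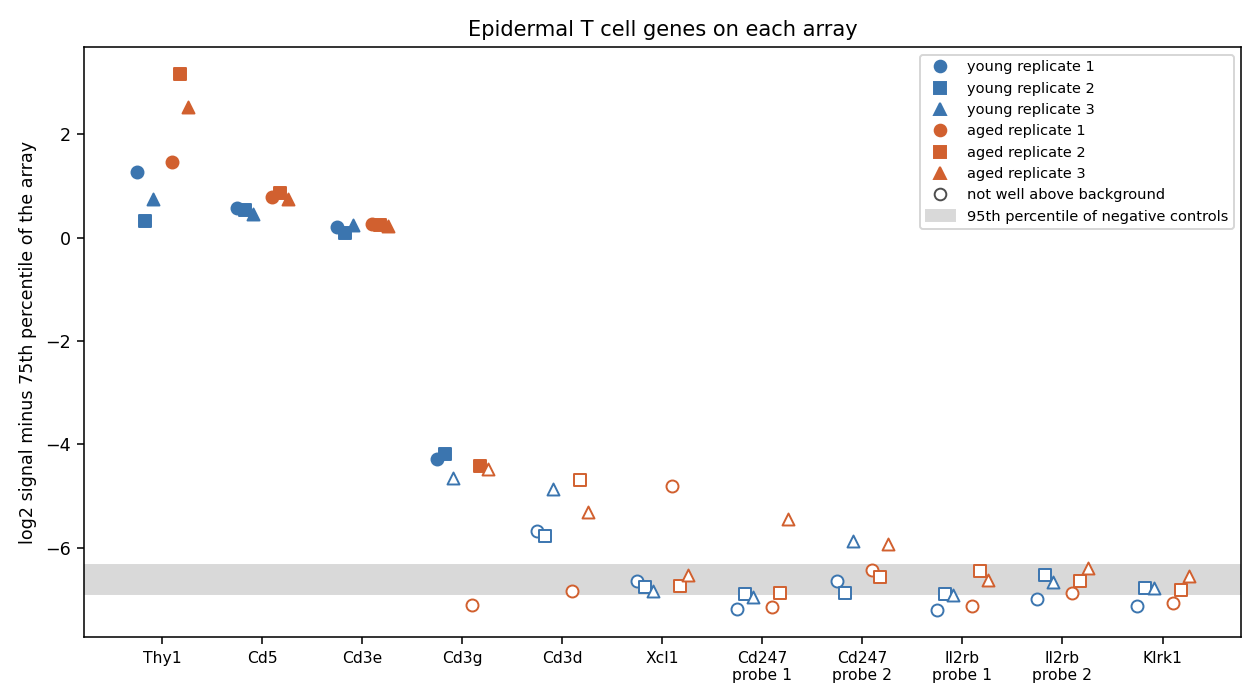
Log2 signal minus the array's 75th percentile for the 11 member probes (horizontal axis) on each array, with young arrays in blue, aged in orange, a marker shape per replicate, open symbols for signals not well above background, and a grey band for the range over arrays of the negative controls' 95th percentile. Thy1 and Cd5 lie higher in all 3 aged arrays, Cd3e is level, Cd3g and Cd3d lie below or within the band on aged replicate 1, and heights of different probes cannot be compared.

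Thy1, which encodes a small surface glycoprotein anchored by lipid, differed most among the 4 tested genes. Its values were 1.28, 0.33 and 0.75 on young replicates 1 to 3 and 1.46, 3.17 and 2.54 on aged replicates 1 to 3. Every aged array lay above every young array, though aged replicate 1 was close to young replicate 1, and the other aged arrays were far above both. In processed signal units, before scaling, this was 327.09 to 680.38 in young and 826.59 to 2510.01 in aged epidermis. Young arrays averaged 0.79 ± 0.48 and aged arrays 2.39 ± 0.86 (SD, n = 3 each). The difference was 1.60 ± 0.47 (SE), a ratio of 3.04 with a 95% confidence interval from 1.38 to 6.70. It missed the threshold of 0.05 for limma's adjusted p (adjusted p = 0.192).

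The call for Thy1 changed with which arrays entered and how they were weighted. Without aged replicate 1 it rose by 2.07 ± 0.33 and passed (limma adjusted p = 0.0297), in a fit in which 5.72% of named genes passed in either direction and 1.96% were higher. That fit leaves Eif2s3y well above background on young replicate 1 only. Without replicate 1 of both groups the difference was 2.32 ± 0.28 and missed the threshold (adjusted p = 0.0517), while 1.52% of named genes passed and 0.453% were higher. With arrays weighted by their fit, Thy1 rose by 2.20 ± 0.35 (limma adjusted p = 0.0275), where 7.84% of named genes passed and 3.83% were higher. Over the 17 alternatives the difference stayed between 1.21 and 2.32, with adjusted p between 0.0275 and 0.695.

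Cd5, an inhibitory coreceptor that dampens T cell receptor signals, differed by little but without overlap. It read 0.58, 0.54 and 0.46 on young replicates 1 to 3 and 0.79, 0.86 and 0.75 on aged replicates 1 to 3. All aged values lay above all young ones, by an amount larger than the spread within either group. In processed signal units, before scaling, the groups overlapped. Cd5 was then at 363.32 to 419.25 in young epidermis and at 519.21, 507.21 and 387.63 on aged replicates 1 to 3. Young arrays averaged 0.53 ± 0.061 and aged arrays 0.80 ± 0.055 (SD, n = 3 each). The difference was 0.27 ± 0.10 (SE, a ratio of 1.21, 95% confidence interval 1.01 to 1.44) and missed the threshold (limma adjusted p = 0.250). The median difference of all tested named genes was 0.093, which is about the size of the SE of Cd5.

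With all 6 arrays, 0 of the 4 tested members passed (limma, adjusted over 25066 features), and 2, Thy1 and Cd5, had an unadjusted p under 0.05. Over the 14134 tested named genes 0.0778% passed, or 11, with 0.0425% higher and 0.0354% lower, over all features 0.0638% passed, and 17.7% of named genes had an unadjusted p under 0.05. With the replicate number as a block 0 named genes passed, with 2711 at an unadjusted p under 0.05. The same 2 members, of 4, did not overlap between the groups. Of all tested named genes 27% did not overlap, with 19.5% higher and 7.48% lower, so separation of the groups was common on these arrays. The median difference was 0.17 over the tested members and 0.093 over all tested named genes.

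The remaining members were not well above background on any array. Il2rb had a pair of probes, at -7.22 to -6.46 and -6.99 to -6.39, each above the negative controls' 95th percentile on 1 array. Klrk1, at -7.12 to -6.54, exceeded it on 0 arrays. Xcl1 read -6.65, -6.77 and -6.84 in young and -4.80, -6.75 and -6.53 in aged epidermis. Its highest value came from aged replicate 1, the array on which Cd3g and Cd3d were lowest, and it too was not well above background there, although Xcl1 exceeded the highest negative control on 2 arrays. An age difference of Il2rb, Klrk1, Xcl1, Cd3d or Cd247 was therefore not detectable with this array, which does not show that the genes are silent.

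Other genes of the same receptor pathway showed the same mixture. Of 33 signalling genes of the T cell receptor 13 were well above background on all 6 arrays and 12 on none, and 16 were tested. None passed (limma, all features), 5 had an unadjusted p under 0.05, 8 were higher and 8 lower, and the median difference was -0.022. Lck, the kinase that phosphorylates the CD3 chains, read -2.40 to -2.30 in young and -2.58 to -2.14 in aged epidermis, a difference of 0.016 ± 0.14. Its relative Fyn read -1.10 to -0.91 in young and -2.10 to -1.60 in aged epidermis, without overlap, and differed by -0.78 ± 0.16 (SE, limma adjusted p = 0.127). Zap70 and the adaptor gene Lat differed by -0.35 ± 0.28 and -0.52 ± 0.22, with overlapping groups. The adaptor gene Lcp2 was well above background on 0 arrays. Ptprc, which encodes the leukocyte phosphatase CD45, was well above background on 2 of 6 arrays, 1 in each group.

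Partners of the receptors were unevenly detected. For Klrk1, the adaptor gene Hcst differed by 0.44 ± 0.26 and Tyrobp by -1.48 ± 1.06, the latter at -6.94 on aged replicate 1 and -3.44 to -2.65 on the other arrays. Of 6 adaptor and ligand genes of NKG2D with a probe 3 were tested, and limma called 0 of them, with 0 at an unadjusted p under 0.05. For Il2rb, the common gamma chain gene Il2rg and the IL-7 receptor gene Il7r were not well above background on any array. The cytokine gene Il15, which maintains these T cells, differed by 0.054 ± 0.28, and Il15ra, whose product presents it, by 0.082 ± 0.20. Il15 was well above background on only 3 arrays, 2 young and 1 aged. Of 8 tested genes of this pathway 7 were higher, limma called 0, with 0 at an unadjusted p under 0.05, and the median difference was 0.13. For Itgae, the partner chain gene Itgb7 differed by -0.30 ± 0.16 and the ligand gene Cdh1, E-cadherin of keratinocytes, by 0.15 ± 0.10. Xcr1, the receptor of XCL1, was well above background on 0 arrays.

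Genes of homing, support and effector function of these T cells gave no call either. The skin homing receptor gene Ccr10 differed by 0.64 ± 0.50, and 0 of 12 tested adhesion and homing genes passed, with 3 at an unadjusted p under 0.05. All 11 Skint genes, a keratinocyte family needed for these T cells to be selected in the thymus through Skint1, were tested and 0 passed, with 1 at an unadjusted p under 0.05 and Skint1 at 0.45 ± 0.30. Jaml, a costimulatory receptor of epidermal T cells, read -0.31, 0.54 and 0.67 in young and -1.93, 0.86 and 1.19 in aged epidermis, a difference of -0.26 ± 0.84. Without aged replicate 1 it was 0.72 ± 0.32 (limma adjusted p = 0.254), so its direction turned on that array. Among transcription factors Sox13 differed by 0.031 ± 0.19 and Tcf7 by -0.80 ± 0.26, and 0 of 15 passed, with 7 at an unadjusted p under 0.05. Of 22 effector and cytokine genes 10 were not well above background on any array, among them the granzyme gene Gzmb and the keratinocyte growth factor gene Fgf7. Ccl5 and Igf1 were each well above background on 1 aged array only. Without aged replicate 1, where 5.72% of named genes passed, Skint1 rose by 0.78 ± 0.14 (limma adjusted p = 0.0399) and Tcf7 fell by 1.05 ± 0.19 (adjusted p = 0.0417). In that fit 0 of the 16 signalling genes passed, and their median difference was 0.17 in place of -0.022. The Skint list then had 2 of 11 genes past the threshold, both higher, and the transcription factor list 2 of 15, Tcf7 and Lef1, both lower. These signals are of total epidermis. The part of hair follicle cells and other cells in those of Tcf7 and Lef1 was not tested.

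**Figure D2:**
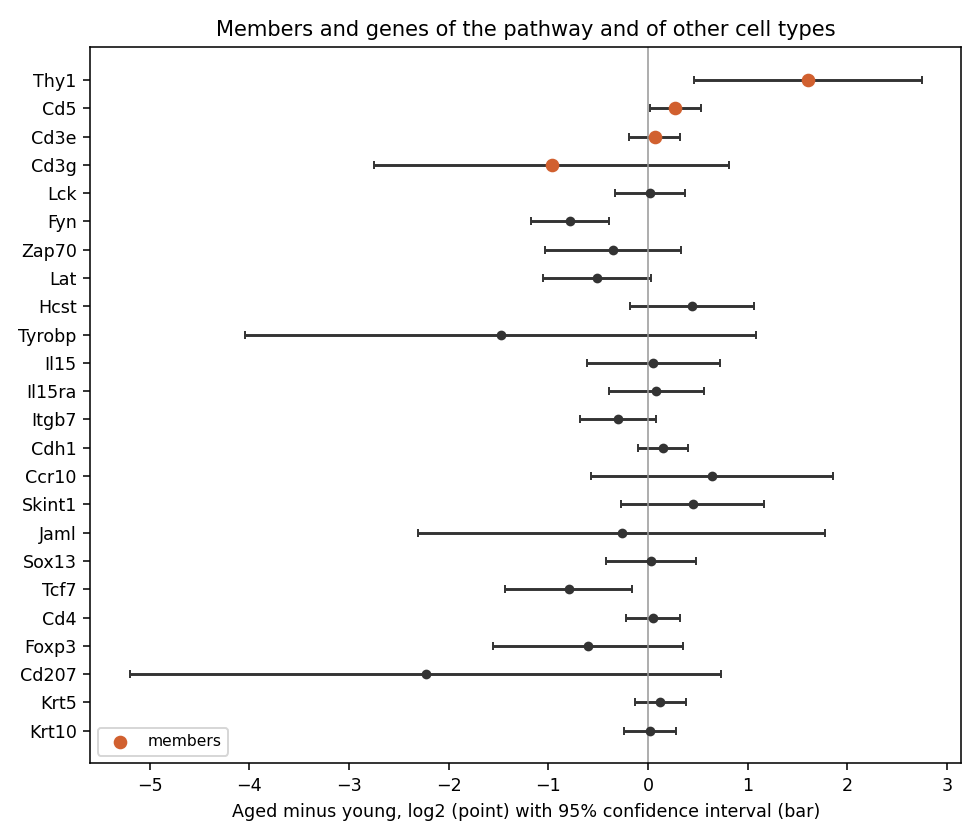
Aged minus young difference on the log2 scale with its 95% confidence interval for the 4 tested members (orange) and the tested genes of the panel of pathway partners and other cell types (black), with 3 arrays per group. The intervals of Thy1 and Cd5 lie above 0 and those of Fyn and Tcf7 below it, and none of these 4 genes passed after adjustment over all features.

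**Figure D3:**
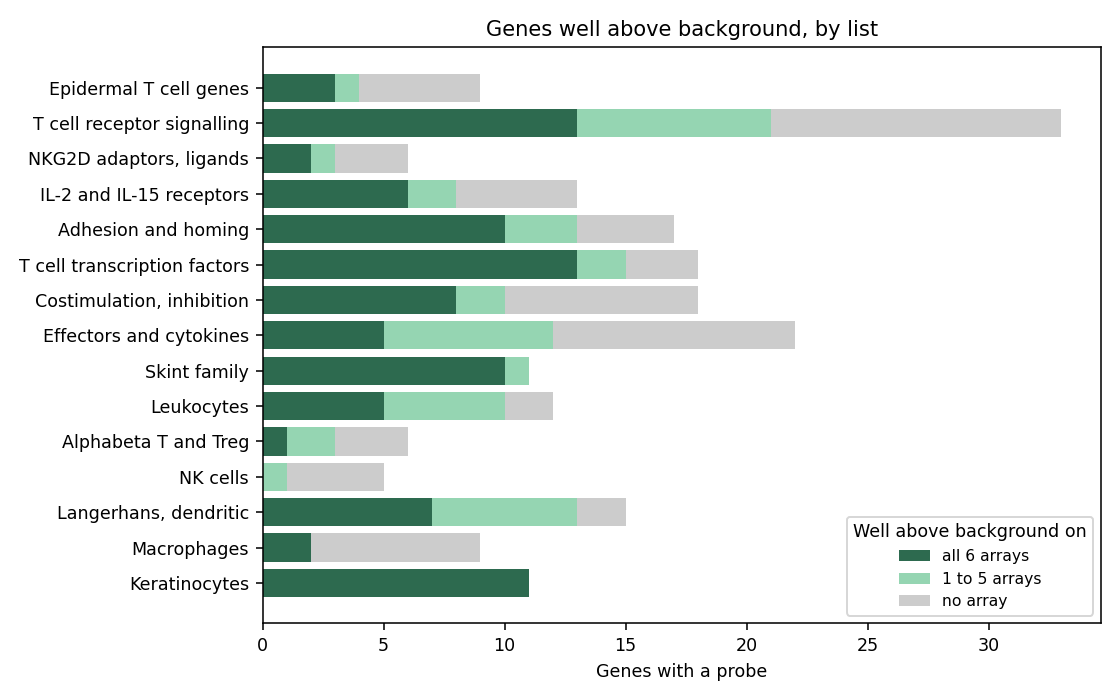
Number of genes with a probe in each list (horizontal axis), split by whether a gene was well above background on all 6 arrays, on 1 to 5, or on none. Of the 9 member genes 3 were above background on all arrays and 5 on none, against 11 of 11 keratinocyte genes on all.

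Other lymphocytes also express CD3 chains, Cd5 and Thy1, and their markers were read on the same arrays. For alphabeta T cells Cd8a was well above background on 0 arrays, and Cd4 was on all 6, at 0.20 to 0.38 in young and 0.28 to 0.42 in aged epidermis. Like Cd3e, Cd4 was level, with a difference of 0.049 ± 0.11. The summed level of the 6 listed genes of alphabeta and regulatory T cells was 1.25 to 1.44 in young and 1.37 to 1.44 in aged epidermis. Most of that sum was Cd4, and 3 of the 6 genes were not well above background on any array. Foxp3 differed by -0.60 ± 0.39, but was well above background on all 3 young arrays and only 1 aged array. For NK cells 4 of 5 genes, Ncr1 among them, were not well above background on any array, and the summed level was 0.0493 to 0.0593 in young and 0.0517 to 0.137 in aged epidermis. A summed level adds the signals of a list's probes as multiples of the array's 75th percentile, so the brightest probes weigh most. The part of these cells in the signals of Cd3e, Cd5 and Thy1 was not tested.

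Fibroblasts also make Thy1, and of 4 tested fibroblast genes Col1a1 and Col3a1 were past the threshold, the only such genes in the lists used here. Col1a1 was lower in aged epidermis by a log2 difference of -2.95 ± 0.18 (limma adjusted p = 0.0283). Col3a1 was well above background on all 3 young and 0 aged arrays, so its difference is a bound, at least 4.78-fold lower in aged epidermis (limma adjusted p = 0.0467). Both calls were lost with the replicate block, with the slide row as a block, and without any 1 array other than aged replicate 1, where 0 named genes passed. They were also lost without the filter on dim probes, where 1 named gene passed and 0 were lower. The probes read here, well above background on 5 arrays for Col1a1 and 3 for Col3a1, do not meet the filter for all 6. Dcn, a fibroblast proteoglycan gene, read 1.95 to 2.84 in young and 4.34, 1.92 and 1.20 on aged replicates 1 to 3. The summed level of the 7 fibroblast genes was 5.37 to 8.17 in young and 2.55 to 20.6 in aged epidermis, and Dpt, Lum and Pdgfra were well above background on 0 arrays. The 11 hair follicle genes, of which 4 are hair shaft keratins and most others belong to the inner root sheath, had a median difference of -3.32. All 11 were lower in the aged group, and limma called 0 after adjustment. Of them 9 were lower without overlap, against 7.48% of all tested named genes, and 9 had an unadjusted p under 0.05, against 17.7%. Their summed level was 1089 to 1700 in young and 23.7 to 886 in aged epidermis. Melanocyte genes were lower in 7 of 7, with 0 called, 4 at an unadjusted p under 0.05 and a summed level of 15.0 to 19.1 in young and 5.17 to 13.8 in aged epidermis. Without aged replicate 1, the fit in which Thy1 passed, limma called 8 of 11 hair follicle genes, 6 of 7 melanocyte genes and 3 of 4 fibroblast genes, all lower, against 3.76% of all tested named genes called lower in that fit. The part of these cells in the Thy1 difference was not tested.

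Most leukocyte genes were lowest on aged replicate 1, the array on which Cd3g and Cd3d were at the background. Of 9 tested leukocyte genes 6 had their lowest value there, and of 11 tested Langerhans and dendritic cell genes 9, against 24.0% of all tested named genes. The keratinocyte family Skint also had a share above that of all genes, at 54.5%. Adhesion and homing genes had 58.3%, but that list is not apart from leukocyte genes, since Itgb2 stands in both lists. The signalling gene Vav1 read -5.01 on that array and -1.91 to 0.10 on the others. Cd207, the langerin gene of Langerhans cells, read -6.96 on it and -3.90 to -1.64 on the others, the summed level of the 15 listed genes of those cells was 15.1 to 21.2 in young and 5.41 to 19.3 in aged epidermis, and Adgre1 of macrophages was well above background on 0 arrays. The median deviation of the leukocyte list from the young mean was -1.18, -0.23 and 0.022 on the 3 aged arrays in the order of their numbers. Of 16 tested signalling genes of the T cell receptor, 4 were lowest on aged replicate 1, which is 25.0% and near the share of all genes. The part of this array's sex, age in months or cell content in these values was not tested.

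**Figure D4:**
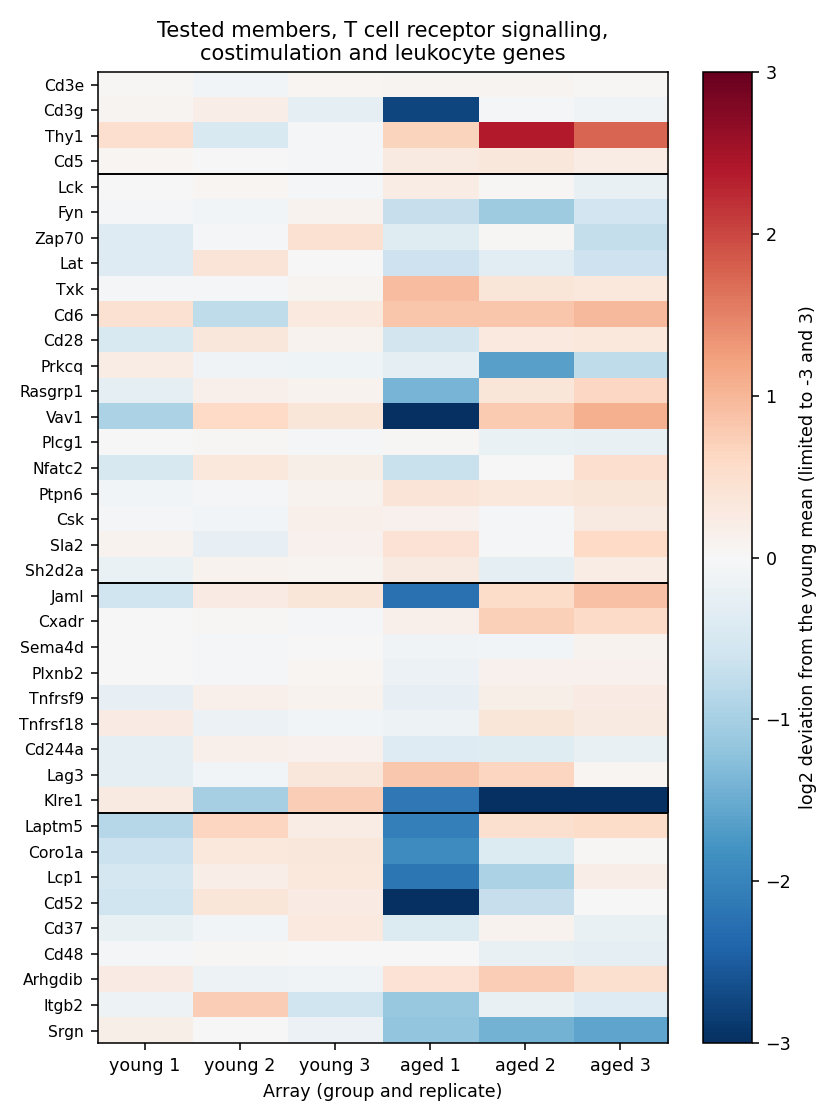
Log2 deviation from the young mean (colour, limited to -3 and 3) of the tested members, T cell receptor signalling genes, costimulation genes and leukocyte genes (blocks from top to bottom) on each array. Cd3g, Vav1, Jaml, Laptm5 and Cd52 have their lowest value on aged replicate 1, and Thy1 is high on aged replicates 2 and 3.

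The members did not move as one across the arrays. Over the 6 arrays Pearson's r between tested members was 0.856 for Thy1 and Cd5, 0.585 for Cd3e and Thy1, 0.022 for Cd3g and Thy1 and -0.497 for Cd3e and Cd3g. These values describe 6 arrays that share an age contrast and carry no test. The mean profile of the 4 members correlated with Thy1 at 0.780, Cd3g at 0.643, Cd5 at 0.418 and Cd3e at 0.134, and so followed Thy1 and Cd3g more closely than the others. On aged replicate 1 the profile was -0.55, a value set by Cd3g, which deviated by -2.26 there and was at the background, so likeness to it follows that value in part. The genes most like that profile among 2594 named genes, well above background on all 6 arrays and spanning at least 1 log2 unit, were Trib1, Dusp7, Noct, Sprr2g, Tiparp, S100a8, Sprr2i, Sprr2d, Thbd and Sprr2e, with r between 0.967 and 0.989 over the 6 arrays. Trib1, for example, read 2.21 to 2.39 in young and 1.85, 3.08 and 2.81 on aged replicates 1 to 3. No T cell gene of the lists was among these 10.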

How the data were processed

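Scanner files of 6 one-colour Agilent arrays were used. Per the file headers, Feature Extraction 11.5.1.1 made the deposited processed signal, a background-subtracted and detrended spot intensity, unscaled between arrays; the arrays share 1 slide and 1 scan. The deposited log2 table of 33870 probes, with scale and centring not stated, matched the scanner values minus the 75th percentile, centred per probe (r at least 0.9999; column medians -0.021 to 0.071), and kept the direction.

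Control spots, and 116 to 170 outlier spots on each array, were dropped, then replicate spots averaged. Of 55681 probes 28331 were named through RefSeq accessions (GRCm38.p6 table), for 21368 genes; the files' own build is mm9. The brightest tested probe stood for a gene. limma 3.58.1 in R 4.3.3 (lmFit, eBayes, two-sided, checked on simulated data) compared the groups, with Benjamini-Hochberg adjustment over 25066 features. An exact permutation test of 3 against 3 cannot go below 0.1, so none was run. Deviations of same-numbered samples correlated at 0.414, 0.259 and 0.102 across features, all over 0.1, but young replicate 2 with aged replicate 3 gave 0.286. The labels name nothing shared by same-numbered samples. The main fit was unpaired, and the replicate number entered as a block only in an alternative fit. Normexp used median spot signals. T cell receptor segments were not analysed here.

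The members, lists and tests were chosen with earlier results of these data known. Genes named are the members, a fixed panel, list genes past the threshold and the 10 genes most like the members, and some of these are not reported here; Vav1, Dcn, Dpt, Lum, Pdgfra, Laptm5, Cd52, Lef1, the Y-linked genes, Klre1 and the genes most like Thy1 were chosen after their values were seen.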

Additional observations from a re-analysis of the deposited data

How the results depend on the processing

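The count of members past the threshold was 0, and it was 1, Thy1, with array weights (difference 2.20 ± 0.35, limma adjusted p = 0.0275) and between 0 and 1 over the leave-one-out fits, with 1 only without aged replicate 1. Of all 25066 features 16 passed. The count was 7 under quantile normalization, 6 of 22115 with probes above background on all 6 arrays, 1 of 48718 without a filter, 2007 with array weights and 314 without replicate 1 of both groups. It was 0 when the fit had a replicate block or a slide row block, where 2711 and 858 named genes had an unadjusted p under 0.05. Young replicates 1 and 2 lay in slide row 1, and young replicate 3 and all 3 aged arrays in row 2. Slide row and age group thus largely coincide, and their parts cannot be fully told apart. Leaving out each array in turn gave 0 to 1318 features, the highest without aged replicate 1, and 1321 to 2411 named genes had an unadjusted p under 0.05 where the count was 0. The directions of Thy1, Cd5, Cd3e and Cd3g held under every alternative in which each was tested, with differences of 1.21 to 2.32, 0.22 to 0.34, 0.011 to 0.095 and -1.42 to -0.034. The replicate block changed no call of a member. Cd3g was not tested with the filter for all 6 arrays. The cause of these shifts was not tested. Signals near the negative controls limit Cd3g, Cd3d, Cd247, Il2rb, Klrk1 and Xcl1.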

Other observations

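Among the genes most like Thy1 alone, a search added after the values were seen, were Aldh3a1, C1ra, Adam8, Nr1d1, Serpinb10, Abcg2, Lrrc8d, Lce3a and Tmem82, with r of 0.968 to 0.990 over the 6 arrays. Aldh3a1, an aldehyde dehydrogenase gene of epithelia, read 3.71 to 4.05 in young and 4.29, 5.38 and 4.85 on aged replicates 1 to 3, a difference of 0.99 (limma adjusted p = 0.190). Adam8, a metalloprotease gene, differed by 0.92 (adjusted p = 0.236).

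Klre1, a receptor gene of the killer cell lectin-like family, was chosen after its values were seen. It read 1.03, -0.22 and 1.51 on young replicates 1 to 3 and -1.38, -4.16 and -6.00 on aged replicates 1 to 3, without overlap. It was not well above background on aged replicate 3, where its value is only a bound, and no fold is given. With all arrays it missed the threshold (limma adjusted p = 0.161). Without aged replicate 1 it passed (limma adjusted p = 0.0154), in a fit in which 3.76% of named genes were called lower.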
